A study of Mus musculus with 18 samples.

Results

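The genes described here are *Tbc1d9*, *4122401K19Rik*, *Sorcs1*, *BC023105*, *Gm52386*, *Gm12678*, and *Hhat*, 7 of the 78239 genes counted in each library, of which 42285 had a count in at least 1 library. They were chosen by their read counts, which were low in the kidneys of male mice born to dams fed a low-protein diet (LP) against those of males born to dams fed a normal-protein diet (NP). The male LP and NP libraries therefore give a description of these genes and not a test of them. The female libraries played no part in the choice, and there the effect of diet was tested. All 7 genes had at least 10 counts in every male library, and 3 of them, *Tbc1d9*, *4122401K19Rik*, and *Hhat*, had at least 10 counts in every female library.

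Kidney RNA was sequenced from 18 CD-1 mice, an outbred stock, with a library for each mouse. All were aged 6 wk, and LP and NP were represented by 5 males each and by 5 and 3 females. The food of LP dams held 8% protein through gestation and lactation and that of NP dams 18%, and all offspring ate the NP diet from weaning at 3 wk. All mice were injected with cationic ferritin for imaging. The last injection preceded collection by 90 min in males and by 24 h in females, so sex and collection time cannot be told apart, and the sexes are described side by side without a test. The methods name a part of the left kidney as the source of RNA, whereas the series text names a whole kidney. The adult mice came from fewer litters than mice, so some were littermates. The litter of each library is not given in the sources used here and could not enter the tests, whose p-values measure the spread between these mice.

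Each library had between 14050486 and 23562411 reads counted on genes. Markers of the proximal tubule summed to between 11310 and 18480 CPM (read counts scaled to a common library total) in every library, and the 5 adrenal markers summed to between 0.414 and 4.08 CPM, with *Th*, *Cyp11b1*, and *Cyp11b2* at 0 and the other 2 detected. Clustering of all libraries set 3 females apart from the other 15, LP females 1 and 2 and NP female 3. Their summed level of 6 interferon-stimulated genes was 77.9 to 141 CPM, against 677 to 2918 CPM in the other 5 females, and that of 5 glucocorticoid-responsive genes was 237 to 450 CPM against 962 to 1271 CPM. Female values are given below with and without these 3 libraries. In whole tissue, fewer cells of a type and less RNA per cell cannot be told apart.

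Of these genes, 3 code for proteins of known families and the other 4 are annotated as long noncoding RNAs (lncRNAs). *Tbc1d9* belongs to the TBC-domain family, whose members act on Rab GTPases, the switches of vesicle traffic, by speeding the hydrolysis of their bound GTP. *Sorcs1* codes for a sorting receptor with a VPS10P domain, a family that carries cargo between the Golgi, endosomes, and cell surface together with the retromer complex. *Hhat* codes for Hedgehog acyltransferase, the enzyme that attaches palmitate to Hedgehog ligands, a step needed for their full signaling strength, and Hedgehog signals shape the developing kidney and ureter. The lncRNAs *4122401K19Rik*, *Gm52386*, *Gm12678*, and *BC023105* have no role stated here.

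Of the 7 genes, 3 lie on chromosome 19, *Gm52386* from base 4031651, *4122401K19Rik* from 12573015, and *Sorcs1* from 50131737. The share of all genes on this chromosome is not given here, so nothing is read from this number. RefSeq promoters, which run from 250 bases before to 50 bases after a gene's start on GRCm38.p6, matched 4 of the 7 genes. They are shown for the 3 protein-coding genes because these genes differ in base composition, and for *Gm12678* because it holds a motif match. The 250 bases before the start are printed in the direction of the gene, and capitals mark a match to 1 of 4 motifs searched on both strands. These were the TATA box with the letters TATAAA, the E-box bound by helix-loop-helix factors, here CACGTG, a core site of nuclear receptors, here AGGTCA, and a core site of steroid receptors, here AGAACA. The *Tbc1d9* stretch is chr8:83165102-83165351 on the plus strand, that of *Sorcs1* is chr19:50678647-50678896 on the minus strand, that of *Hhat* is chr1:192771220-192771469 on the minus strand, and that of *Gm12678* is chr4:44943483-44943732 on the plus strand.
Tbc1d9: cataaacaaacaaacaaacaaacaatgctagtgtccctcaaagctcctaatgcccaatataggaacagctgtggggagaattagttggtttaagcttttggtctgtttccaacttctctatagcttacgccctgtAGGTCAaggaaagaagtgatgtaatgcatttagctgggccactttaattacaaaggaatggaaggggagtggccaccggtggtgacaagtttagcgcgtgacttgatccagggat
Sorcs1: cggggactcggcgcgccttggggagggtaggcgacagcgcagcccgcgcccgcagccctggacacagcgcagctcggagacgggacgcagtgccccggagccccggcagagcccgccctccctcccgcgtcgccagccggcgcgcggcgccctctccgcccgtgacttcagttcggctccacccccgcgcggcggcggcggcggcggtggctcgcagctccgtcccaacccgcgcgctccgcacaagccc
Hhat: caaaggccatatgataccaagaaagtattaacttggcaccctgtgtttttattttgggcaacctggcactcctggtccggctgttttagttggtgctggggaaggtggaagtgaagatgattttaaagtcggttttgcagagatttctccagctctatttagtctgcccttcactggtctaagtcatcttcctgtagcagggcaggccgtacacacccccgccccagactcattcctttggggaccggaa
Gm12678: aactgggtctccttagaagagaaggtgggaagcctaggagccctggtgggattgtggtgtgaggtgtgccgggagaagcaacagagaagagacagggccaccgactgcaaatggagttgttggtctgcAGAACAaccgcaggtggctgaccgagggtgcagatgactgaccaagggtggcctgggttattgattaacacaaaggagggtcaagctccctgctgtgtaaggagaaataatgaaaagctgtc

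The *Sorcs1* window of 300 bases held 50 CG dinucleotides, more than 99.1% of 32851 RefSeq promoters of the same length, and was 80.7% G and C. The windows of *Tbc1d9*, *Hhat*, and *Gm12678* held 5, 6, and 4 CG dinucleotides, beside a median of 7 over all promoters. The *Tbc1d9* promoter held AGGTCA starting 115 bases before the start, and 16.3% of all promoters hold these letters on either strand. The *Gm12678* promoter held AGAACA starting 122 bases before the start, as do 19% of all promoters somewhere in the window. No match to the TATA box letters (13.6% of all promoters) or to those of the E-box (7.15%) was found in the 4 windows, and *Sorcs1* and *Hhat* held none of the 4 motifs. In windows of the same length at the GENCODE starts on GRCm39, searched first, *Tbc1d9* again held AGGTCA, *Gm52386* also held AGGTCA (17.4% of 78287 windows), *4122401K19Rik* held TATAAA (16.7%), and *Gm12678*, *Sorcs1*, *Hhat*, and *BC023105* held no match, so the *Gm12678* match depends on which start is used. No motif was shared by more than 2 of the genes.

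*Tbc1d9* (ENSMUSG00000031709.16) spans chromosome 8 from 83891978 to 83999568 on the plus strand of GRCm39. Levels are given as normalized counts, the read count divided by the library's size factor. In LP males 1 to 5 the normalized counts of *Tbc1d9* were 103, 87.5, 55.9, 139, and 121, and in NP males 1 to 5 they were 282, 279, 345, 232, and 349. All LP males were below all NP males, and the means were 101 ± 31.9 (SD, n = 5) and 297 ± 49.5 (SD, n = 5), a ratio of -1.55 on the log2 scale. Over all genes with 10 or more counts in every male, 0.0379% (5 of 13181) passed edgeR's quasi-likelihood test, and since the rule used this contrast nothing is read from the position of the 7 genes in it.

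In females, *Tbc1d9* was as spread within each diet as between them. The normalized counts were 59.4, 118, 178, 195, and 180 in LP females 1 to 5 and 169, 246, and 15.8 in NP females 1 to 3. The lowest NP female was below every LP female and the highest NP female was above every LP female. The log2 fold change of LP over NP was 0.01 (SE 0.67, Benjamini-Hochberg adjusted p = 0.998 from edgeR), with an exact two-sided permutation p of 0.679 for 5 against 3 mice, where 0.0179 is the smallest p possible. Over all genes, 0.0% (0 of 13510) were called in females by this test of edgeR, with 564 at an unadjusted p under 0.05. The 3 lowest females were the 3 libraries set apart, at 15.8 to 118 against 169 to 246 in the other 5 females. Without them it was -0.17 (SE 0.22, adjusted p = 0.972 from edgeR, 3 LP and 2 NP females), and the part of what sets these libraries apart in the level of *Tbc1d9* was not tested.

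*4122401K19Rik* (ENSMUSG00000120104.2) is a single-exon lncRNA on chromosome 19 from 12573015 to 12575784 on the plus strand. Its normalized counts were 247, 175, 190, 102, and 137 in LP males and 493, 424, 420, 499, and 412 in NP males. The groups were far apart, with the highest LP male at 247 and the lowest NP male at 412, and the NP males lay within a narrow range. The means were 170 ± 55.2 (SD, n = 5) and 450 ± 42.5 (SD, n = 5), a log2 ratio of -1.40.

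Its 2770 exon bases share 891 with *A330040F15Rik*, a protein-coding gene on the opposite strand, and the library kept no strand, so reads from the shared stretch fell on neither gene in the counts used. Those reads, counted from the strand columns, were also lower in LP males, at 112 ± 15.9 (SD, n = 5) normalized reads against 314 ± 62.8 (SD, n = 5), with ranges of 99.5 to 139 and 230 to 404. Reads assigned to *A330040F15Rik* itself were 77.7 ± 12.2 in LP males and 75.9 ± 31.4 in NP males (SD, n = 5 each), with ranges that overlapped. The shared reads come from the same mice as the counts behind the choice and are not a second test.

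In females *4122401K19Rik* was at 172, 170, 194, 70.9, and 68.8 in LP and at 174, 203, and 241 in NP. Of the 5 LP females, 4 were below every NP female, and LP female 3 was above the lowest NP female. LP over NP gave a log2 fold change of -0.60 (SE 0.37, edgeR adjusted p = 0.886, exact permutation p = 0.143), which did not pass the threshold. It was -0.76 (SE 0.47, edgeR adjusted p = 0.972) without the 3 libraries set apart. The direction was the same as in males, and the difference between the sexes was not tested.

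*Sorcs1* (ENSMUSG00000043531.18) spans chromosome 19 from 50131737 to 50667093 on the minus strand. Its normalized counts were 80.8, 164, 174, 121, and 126 in LP males and 250, 251, 298, 341, and 166 in NP males. It was the only one of the 7 genes whose male groups overlapped, since NP male 5, at 166, was below LP male 3, at 174. The means were 133 ± 37.3 and 261 ± 65.2 (SD, n = 5 each), a log2 ratio of -0.97.

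*Sorcs1* was nearly absent from the female libraries. The raw counts were 5, 4, 3, 3, and 3 in LP females and 8, 16, and 3 in NP females, or 45 counts over 8 libraries, against 1842 counts over the 10 males. Every male, at 80.8 to 341 normalized counts, was above every female, at 2.11 to 15.2, a pattern that 6.08% of genes (853 of 14026) shared. The male mean was 43.9 times the female mean in LP and 29 times in NP.

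The few female reads of *Sorcs1* were also fewer in LP than in NP. Summed over mice, LP females had 18 counts, or 0.186 CPM, and NP females 27 counts, or 0.58 CPM. The ratio was 0.32 (exact 95% interval 0.166 to 0.603), which covers counting error only, and 16 of the 27 NP counts came from NP female 2. The exact permutation test over mice gave p = 0.0357 before any adjustment for the 7 genes, with means of 3.03 ± 0.685 (SD, n = 5) and 9.0 ± 5.82 (SD, n = 3). The ranges overlapped, since NP female 3, a library set apart, had 3.64 and LP female 1 had 3.91. *Sorcs1* fell below the count minimum in females, and with no filter on low counts its log2 fold change was -1.53 (SE 0.86, edgeR adjusted p = 0.729), so it was not called.

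*Hhat* (ENSMUSG00000037375.17) spans chromosome 1 from 192179016 to 192453562 on the minus strand. Its normalized counts were 33.6, 29.2, 24.6, 34.6, and 24.5 in LP males and 65.3, 44.6, 57.9, 52.6, and 50.0 in NP males. No LP male reached the lowest NP male, with means of 29.3 ± 4.77 and 54.1 ± 7.89 (SD, n = 5 each) and a log2 ratio of -0.88. The raw counts behind these values were 23 to 45 in LP males and 43 to 54 in NP males.

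In females *Hhat* was at 72.6, 45.4, 38.1, 37.5, and 45.6 in LP and at 42.9, 45.6, and 32.7 in NP. The ranges overlapped, and LP female 1 stood above all other females. LP over NP gave a log2 fold change of 0.24 (SE 0.30, edgeR adjusted p = 0.914, exact permutation p = 0.464), the opposite sign to that in males. It was 0.05 without LP female 1 and -0.13 (SE 0.29, edgeR adjusted p = 0.979) without the 3 libraries set apart.

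*Gm52386* (ENSMUSG00000132187.1), a lncRNA on chromosome 19 from 4031651 to 4035492 on the minus strand, was at 23.6, 19, 22.7, 33.1, and 32.1 normalized counts in LP males and at 74.9, 38.4, 50.1, 59.6, and 61.0 in NP males. The groups did not overlap, with means of 26.1 ± 6.17 and 56.8 ± 13.6 (SD, n = 5 each) and a log2 ratio of -1.12. In females it was at 17.2, 15.1, 7.09, 11.5, and 9.12 in LP and at 23.5, 8.55, and 4.85 in NP. The NP females spanned the whole LP range, and the exact permutation p was 0.768. The log2 ratio of female means, LP over NP, was -0.04. It was -0.80 without the 3 libraries set apart, a setting in which *Gm52386* was not tested.

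*Gm52386* shares 252 of its 798 exon bases with *Acy3*, an aminoacylase gene on the opposite strand with a median of 3728 CPM. Reads that lay over both genes were left out of the counts used, and in males there were at most 7.01 normalized reads of this kind in a library. *Acy3* was at 77960 ± 11950 normalized counts in LP males and 82820 ± 17690 in NP males (SD, n = 5 each), with overlapping ranges of 63500 to 89900 and 64100 to 106000. In females *Acy3* was lower, at 20620 ± 6676 (SD, n = 5) and 20630 ± 9888 (SD, n = 3). The part of *Acy3* reads in the *Gm52386* counts was not tested.

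*Gm12678* (ENSMUSG00000084854.4), a lncRNA on chromosome 4 from 44943318 to 44949421 on the plus strand, overlaps no other annotated gene. Its male log2 ratio was the nearest to 0 of the 7 genes. Its normalized counts were 292, 328, 391, 365, and 256 in LP males and 530, 455, 427, 498, and 678 in NP males. The groups did not overlap, with means of 326 ± 54.5 and 518 ± 98.1 (SD, n = 5 each) and a log2 ratio of -0.67.

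In females *Gm12678* varied more than in either male group. It was at 330, 202, 7.97, 91.8, and 15.4 normalized counts in LP and at 53.1, 134, and 204 in NP, and the exact permutation p was 0.518. The 3 libraries set apart were the 3 highest, at 203 to 330, and the other 5 females were at 7.97 to 134. The log2 ratio of female means, LP over NP, was -0.01 with these 3 libraries. It was -1.28 without them, a setting in which *Gm12678* was not tested.

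*BC023105* (ENSMUSG00000143426.1), a lncRNA on chromosome 18 from 60572465 to 60576929 on the plus strand, was at 14.9, 22.8, 19.9, 21.5, and 17 normalized counts in LP males and at 65.3, 34.2, 89.1, 29.2, and 70.0 in NP males. The LP males were tightly grouped below the NP males, with means of 19.2 ± 3.25 and 57.6 ± 25.3 (SD, n = 5 each) and a log2 ratio of -1.58. A second annotated gene of the same symbol, a pseudogene that shares 1216 exon bases with it on the same strand, had no count in any library. Reads over bases of both genes were left out of the counts used. The values of *BC023105* therefore cover only part of its 2418 exon bases, and its level over the shared bases is not known.

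In females *BC023105* was at 3.91, 3.36, 54.9, 25, and 138 in LP and at 69.4, 169, and 12.1 in NP, and the exact permutation p was 0.411. The 3 libraries set apart were the 3 lowest, at 3.36 to 12.1, against 25 to 169 in the other 5 females. This is the reverse of *Gm12678* in the same libraries.

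**Figure D1:**
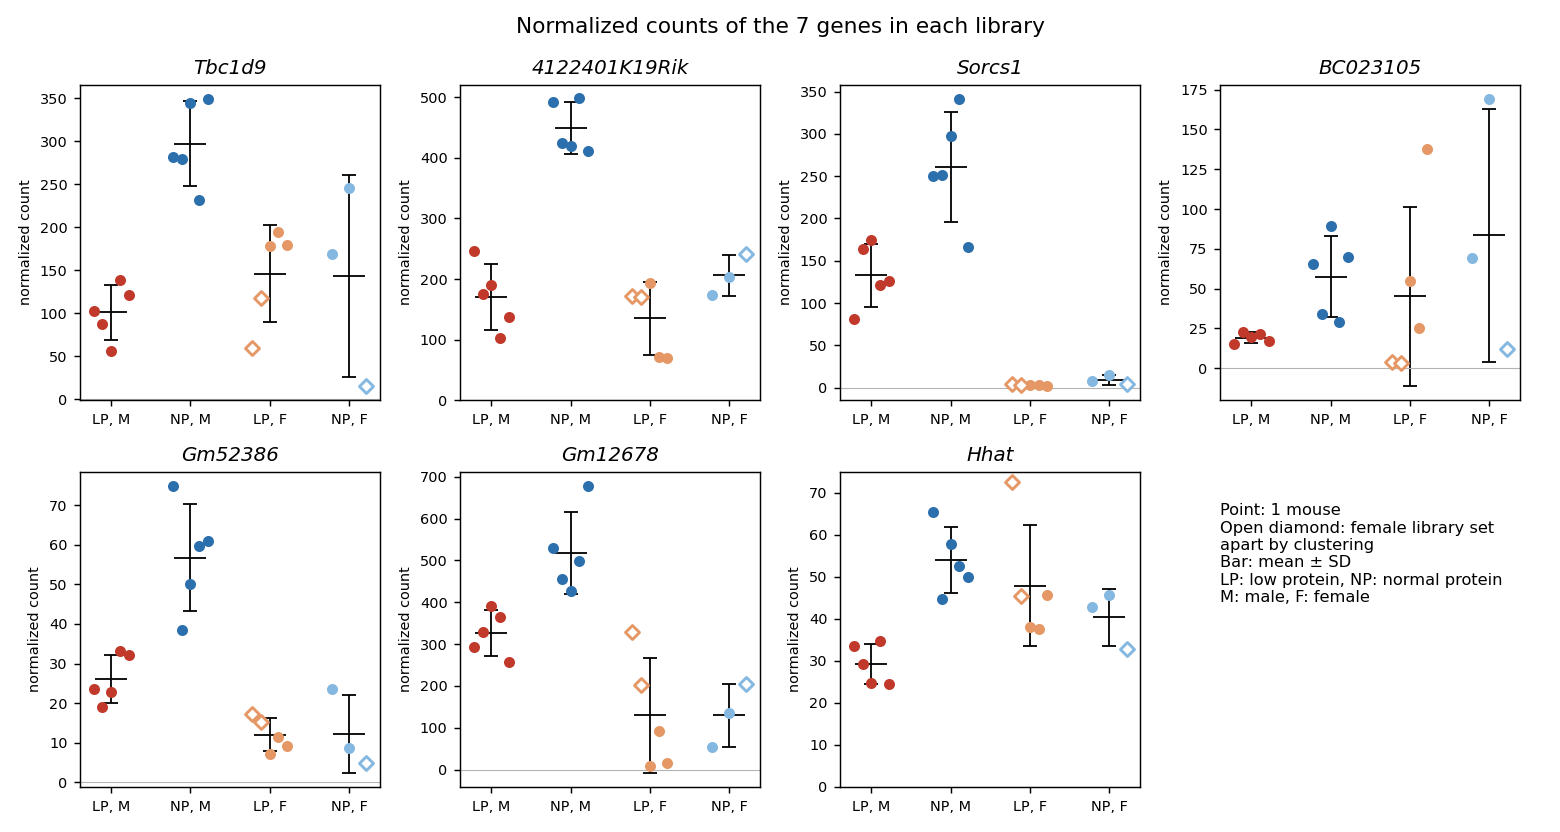
Normalized counts (y axis) of each gene in every library, by group (x axis), with the mean and SD as bars and the 3 female libraries set apart as open diamonds. The LP males all lie below the NP males for 6 of the 7 genes, *Sorcs1* lies near 0 in all females, and the open diamonds are the lowest females for *Tbc1d9* and *BC023105* and the highest for *Gm12678*.

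In males, 6 of the 7 genes had every LP library below every NP library, which was so for 0.465% of genes (65 of 13968), and this is the contrast that chose them. In females, LP and NP overlapped for all 7 genes, against 3.28% of genes (483 of 14740) in which they did not overlap in either direction. None of the 3 genes tested in females was called by edgeR or by DESeq2, and 0 had an unadjusted p under 0.05. Of the 7 log2 ratios of mean normalized counts in females, 5 were below 0, from -0.01 for *Gm12678* to -1.57 for *Sorcs1*, and those of *Tbc1d9* and *Hhat* were 0.03 and 0.24. Without the 3 libraries set apart, a setting added after the data were seen, all 7 were below 0. They ran from -0.13 for *Hhat* to -2.15 for *Sorcs1*, with 3 LP and 2 NP females, and none of the 4 genes tested was called. *Sorcs1* and *Gm52386* were low in females, at 2.11 to 15.2 and 4.85 to 23.5 normalized counts. The share of all genes below 0 is not given here, so nothing is read from the number of genes below 0. The standard errors of the 3 tested genes in females were 0.30 to 0.67 on the log2 scale.

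**Figure D2:**
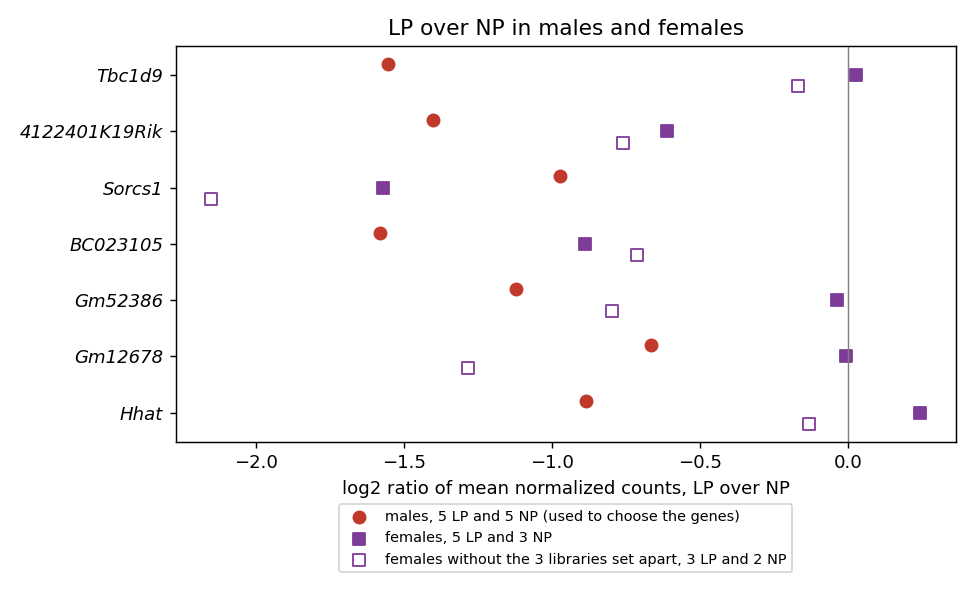
Log2 ratio of mean normalized counts, LP over NP (x axis), for each gene (y axis) in males (circles), in all 8 females (filled squares), and in the 5 females not set apart (open squares). The male ratios, used to choose the genes, lie between -1.58 and -0.67, those of all 8 females between -1.57 and 0.24, and those of the 5 females not set apart between -2.15 and -0.13.

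The spread between mice was described in each of the 4 groups. The coefficient of variation of the 7 genes, the SD as a percentage of the mean, had a median of 23.6% (LP) and 19% (NP) in males and of 38.8% (LP) and 64.7% (NP) in females. Several genes had group means under 20 normalized counts, where counting noise raises this measure. Among group means of 20 to 600, the medians were 25.9% over 6 of the genes in LP males, 19% over 7 in NP males, 44.6% over 5 in LP females, and 57.9% over 5 in NP females. Over all genes with group means in that range they were 19.9% and 20.9% in males and 22.4% and 31.4% in females. *BC023105* in LP females had the highest, at 125%, followed by *Gm12678* in LP females, at 106%. The lowest was that of *4122401K19Rik* in NP males, at 9.46%.

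The place of a mouse within its group was compared between the 7 genes, as a description. After group means were removed on the log2 scale, the 21 pairs of genes had correlations from -0.60 (*Tbc1d9* and *4122401K19Rik*) to 0.42 (*Gm52386* and *Hhat*) over the 10 males. Over the 8 females they ran from -0.81 (*BC023105* and *Gm12678*) to 0.74 (*Tbc1d9* and *BC023105*), pairs that include genes that differed most between the 3 libraries set apart and the rest. These points share libraries and depth.

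**Figure D3:**
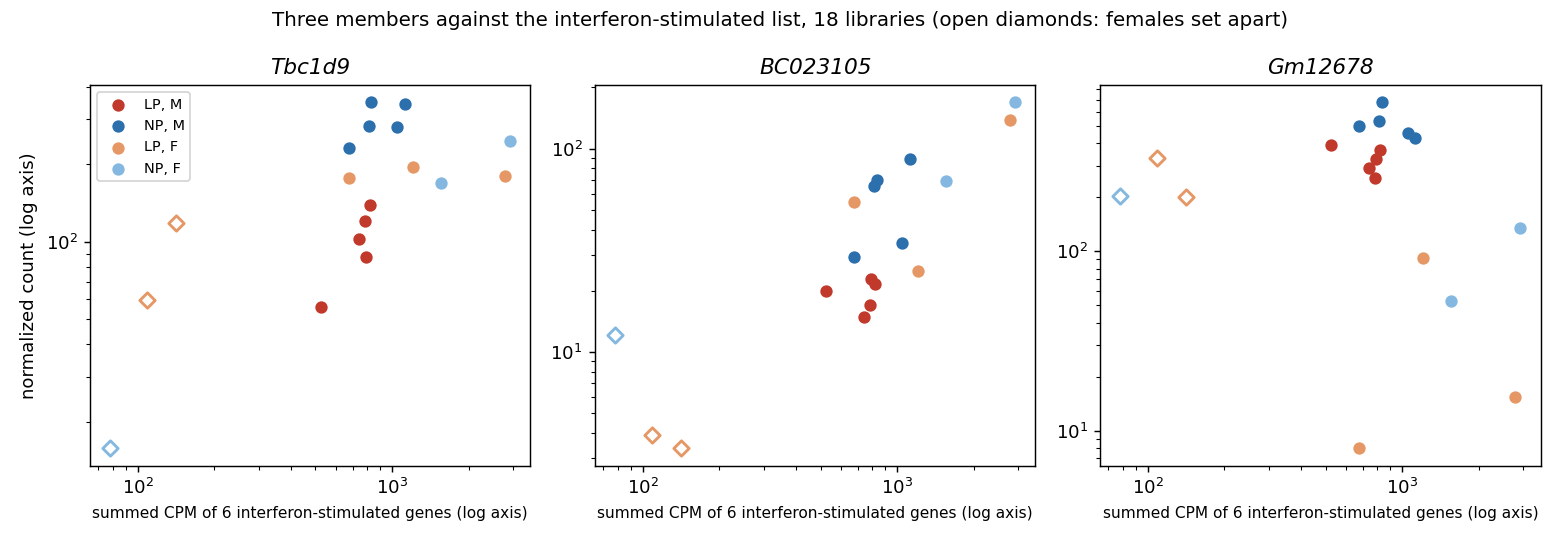
Normalized counts of *Tbc1d9*, *BC023105*, and *Gm12678* (y axes, log scale) against the summed CPM of 6 interferon-stimulated genes (x axes, log scale) in 18 libraries, with the 3 females set apart as open diamonds. The open diamonds sit at 77.9 to 141 CPM, low in *Tbc1d9* and *BC023105* and high in *Gm12678*, and LP and NP males overlap on the x axis.

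The summed levels of marker lists were also set side by side in LP and NP males. The 6 interferon-stimulated genes summed to 526 to 818 CPM in LP males and 677 to 1119 CPM in NP males, ranges that overlapped. In the females lowest in this list, *Tbc1d9* and *BC023105* were lowest and *Gm12678* was highest. These females were also the lowest in the glucocorticoid-responsive genes. The glucocorticoid-responsive genes were at 531 to 772 CPM in LP males and 486 to 858 CPM in NP males, and the 7 markers of collecting duct and medulla at 358 to 699 CPM and 302 to 982 CPM. The 6 adipocyte markers were at 6.60 to 199 CPM in LP males and 9.68 to 101 CPM in NP males. The part of these lists in the values of the 7 genes was not tested.

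The levels in males and females were also set side by side within each diet, since a mean over both diets carries the low LP male values that chose the genes. The male mean was above the female mean in both diets for *Gm52386* (2.18 times in LP and 4.62 times in NP), *Gm12678* (2.52 and 3.97 times), and *4122401K19Rik* (1.26 and 2.18 times). *Tbc1d9* was at 0.694 times the female mean in LP and 2.08 times in NP, where NP female 3 was at 15.8. *Hhat* was at 0.612 times in LP and 1.34 times in NP. The LP ratios still hold the male values that chose the genes. A ratio lower in LP than in NP is favoured by that choice, and nothing is read from it. *BC023105* was lower in males in both diets, at 0.427 and 0.689 times the female mean. For these 6 genes the ranges of all males and all females overlapped. In CPM per kilobase of exon, the NP male mean was 10.5 for *Gm12678*, 8.97 for *4122401K19Rik*, 3.92 for *Gm52386*, and 2.79 for *Tbc1d9*. It was 1.68 for *Sorcs1*, 1.31 for *BC023105*, and 0.321 for *Hhat*. The scale divides by all exon bases, also those shared with another gene, where reads were left out of the counts. It is therefore lowered for *4122401K19Rik* (891 of 2770 bases shared) and *BC023105* (1216 of 2418). *Gm52386* (252 of 798), *Tbc1d9* (822 of 5895), and *Sorcs1* (213 and 168 of 8611) also share exon bases with genes on the opposite strand. For *Sorcs1*, the reads left out were at most 51 in an LP male (LP male 3, with 184 counted) and 80 in an NP male (NP male 3, with 267 counted). The order is not read as a ranking. The neighbours *Gm12678* and *4122401K19Rik*, and *Sorcs1* and *BC023105*, in this order differed by less than the larger of their SDs (1.93 and 0.828, 0.425 and 0.557).

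The relatives and partners of the 3 protein-coding genes, in 4 lists of 89 genes that leave out the 7, did not pass the test in either sex, by edgeR or by DESeq2. Of 39 TBC-domain genes, 37 were tested in each sex and 0 were called, with a median log2 fold change of -0.04 in males and 0.15 in females, beside -0.00 and -0.01 over all genes tested. *Tbc1d9b*, the closest relative, had a level of 6.42 CPM per kilobase in NP males and a log2 fold change of 0.12 (SE 0.09, edgeR adjusted p = 0.9996) in LP over NP males. None of the 37 had an unadjusted p under 0.05 in males, and 1 (2.70%) had in females, beside 3.84% of all genes tested in males and 4.18% in females.

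Of the 16 VPS10P-domain receptors and retromer genes, 14 were tested in males and 15 in females, and 0 were called. Their medians were -0.02 in males and 0.17 in females, and 0 in males and 3 (20%) in females, all higher in LP, had an unadjusted p under 0.05, beside 3.84% and 4.18% of all genes. Among the receptors, *Sort1* and *Sorl1* were at 3.94 and 6.14 CPM per kilobase in NP males, with male log2 fold changes of 0.12 (SE 0.18) and 0.19 (SE 0.21).

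Of 24 Hedgehog pathway genes, 15 were tested in males and 16 in females, and of 10 membrane-bound O-acyltransferases, relatives of *Hhat*, 8 were tested in each sex. Again 0 were called, with medians of 0.03 and -0.00 in males and 0.10 and 0.04 in females. An unadjusted p under 0.05 was found for 2 Hedgehog genes in each sex (13.3% in males and 12.5% in females) and for 1 acyltransferase in males and 0 in females (12.5% and 0%), beside the same 3.84% and 4.18%. The one list gene with an unadjusted p under 0.01 was *Ptch1*, which codes for the Hedgehog receptor and is itself a target of the pathway. Its normalized counts were 875 ± 118 in LP males and 651 ± 98.1 in NP males (SD, n = 5 each), a log2 fold change of 0.44 (SE 0.12, edgeR unadjusted p = 0.00403, adjusted p = 0.9996), with ranges of 726 to 1000 and 576 to 811. In females *Ptch1* had a log2 fold change of 0.40 (SE 0.32, edgeR adjusted p = 0.887).

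Genes next to the 7 were examined in males. Of the genes within 500 kb, 95 were tested and 0 were called by edgeR, with 8 (8.42%) at an unadjusted p under 0.05, beside 3.84% (506 of 13181) of all genes tested in males, and a median log2 fold change of -0.01 in LP over NP males. *Sorcs1* had no tested neighbour, and the others had between 9 and 38. Near *4122401K19Rik*, *Gm4952*, a protein-coding gene whose start lies 4.28 kb downstream, was at 80.1 ± 34.3 normalized counts in LP males and 182 ± 72.0 in NP males (SD, n = 5 each). Its log2 fold change was -1.17 (SE 0.34, edgeR unadjusted p = 0.00488, adjusted p = 0.9996), and its ranges, 36.8 to 126 and 100.3 to 267, overlapped.

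*Kcnh1*, a potassium channel gene on the strand opposite *Hhat*, went the other way from *Hhat*. It was at 84.5 ± 12.3 normalized counts in LP males and 44.9 ± 12.9 in NP males (SD, n = 5 each), a log2 fold change of 0.93 (SE 0.21, edgeR unadjusted p = 0.000954, adjusted p = 0.735). It was called by DESeq2's Wald test and not by edgeR. The spans of *Hhat* and *Kcnh1* overlap but they share no exon base. In females the log2 fold change of *Kcnh1* was 1.89 (SE 0.86, edgeR adjusted p = 0.886).

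**Figure D4:**
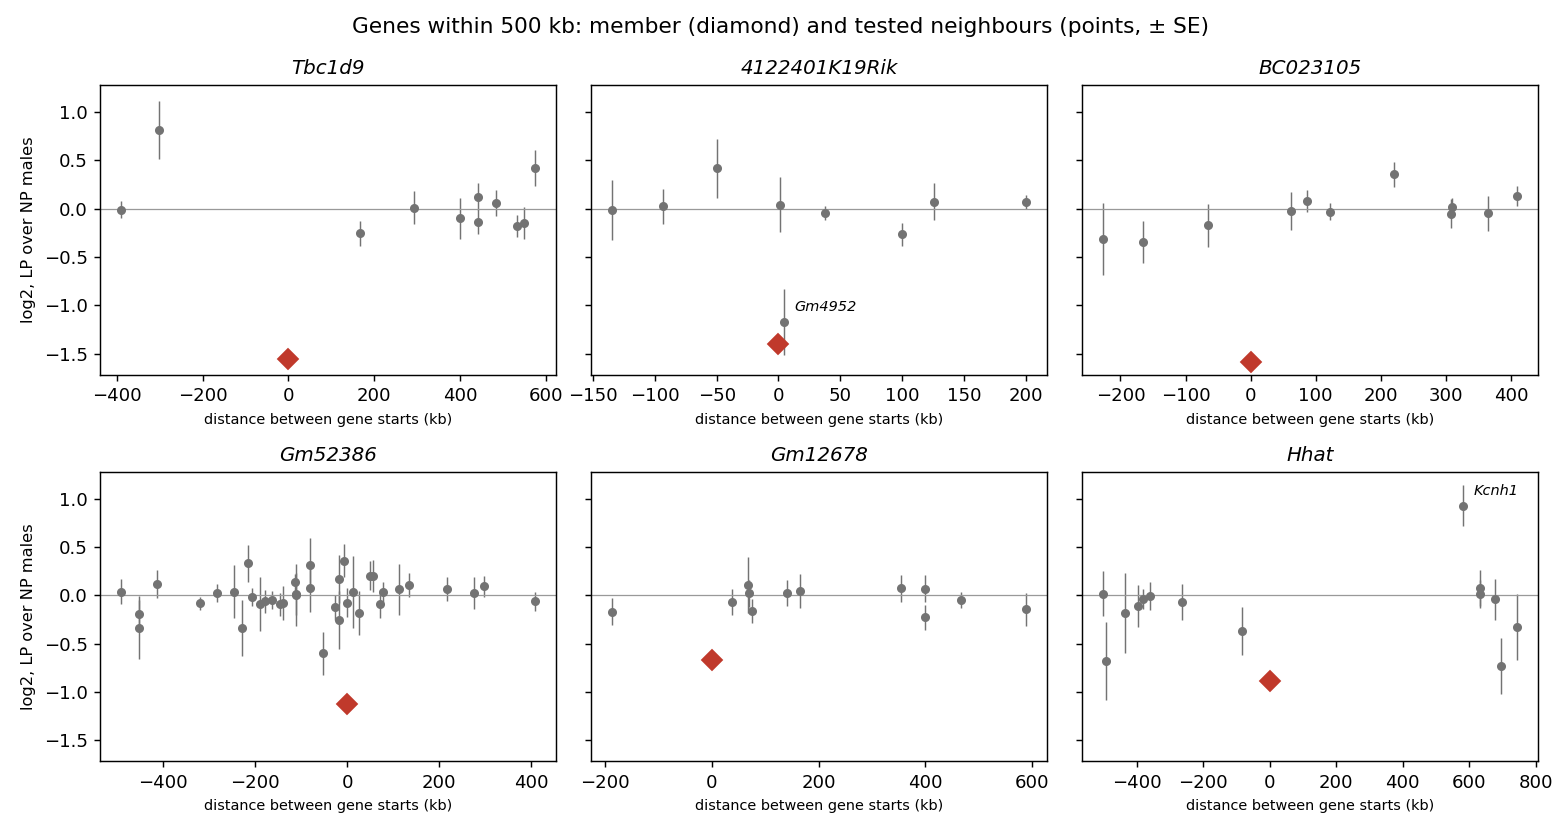
Log2 fold change in LP over NP males with SE (y axis) of the 95 tested genes within 500 kb, by the distance between gene starts in kb, positive downstream (x axis), in a panel for each of the 6 genes with tested neighbours. The log2 ratio of the gene itself is the diamond. *Gm4952* lies beside *4122401K19Rik*, *Kcnh1* lies above 0 where *Hhat* lies below, and the median of the neighbours is -0.01.

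The genes most like each of *Tbc1d9*, *4122401K19Rik*, and *Hhat* were found by Pearson's r of log2(CPM + 1), as a description. The r values given are the highest over all genes compared. Those over the 18 libraries also hold the male contrast that chose the 7 genes. Over the 18 libraries, *Tbc1d9* was closest to *Cog4* (r = 0.859), *Tax1bp1* (0.839), and *Abcf2* (0.817). Over the 8 females alone it was closest to *Pxk* (0.994), *Abcf2* (0.981), and *Meox1* (0.981). *Abcf2* was in both sets, which share these 8 females. The 3 libraries set apart were the lowest females for *Tbc1d9*, and their part in its r was not tested. *4122401K19Rik* was closest to *Cfap20dc* (0.764), *Coro7* (0.733), and *Srd5a2* (0.728) over all libraries and to *Endou* (0.943), *Cacybp* (0.932), and *Pld2* (0.931) over females. *Hhat* was closest to *Plscr2* (0.795), *Tldc2* (0.767), and *Hoxc10* (0.761) over all libraries and to *Ints13* (0.948), *Pi4kb* (0.947), and *Chadl* (0.946) over females. The other 4 genes had under 10 counts in at least 1 library and were not ranked.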

How the data were processed

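After quality filtering and adapter trimming, the authors used STAR with GRCm39 and GENCODE vM36, and the deposited files hold raw read counts per gene, not normalized. Unstranded counts were analysed, as the poly(A) library was non-directional. Gene positions are those of GENCODE vM39 (78168 of 78239 identifiers matched). The 7 genes and all lists were chosen with earlier results of these data known. LP and NP females were compared with edgeR 4.0.16 (R 4.3.3), its quasi-likelihood test, TMM normalization, and Benjamini-Hochberg adjustment over genes that reached 10 counts in all libraries compared. A gene was called at an adjusted p under 0.05. The SE given with an edgeR fold change is its absolute log2 value divided by the square root of the quasi-likelihood F statistic. The same test was run in males for the lists and neighbouring genes. The 7 genes were also tested in females by exact two-sided permutation of log2(normalized count + 1). Normalized counts use the size factors of DESeq2 1.42.0 over 18 libraries. Alternatives were no filter on low counts, filterByExpr, DESeq2 size factors, DESeq2's Wald test, 4 groups in 1 model, a replicate block, strand columns summed or alone, CPM, and leaving out each library; leaving out the 3 female libraries set apart was added after the data were seen. The genes named are the 7, the 3 most like each, and list or neighbouring genes that were called or had an unadjusted p under 0.01; other list genes were chosen after their values were seen. Promoter windows at GENCODE starts on GRCm39 were searched first, and the RefSeq windows were chosen afterwards with those matches known; the results of both are given. The model fits were tested on simulated data. Python 3.11.15, pandas 2.3.3, numpy 2.4.6, and scipy 1.17.1 were used.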

Additional observations from a re-analysis of the deposited data

Results flagged for a closer look

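*Hhat* in LP females was marked because replicate 1, at 72.6 normalized counts, stood far above the other 4 mice of its group relative to the range of the group. Of 21 groups of 4 or more mice examined (7 genes in 3 groups), 1 was marked, and chance marks about 1 in 20. This mouse is 1 of the 3 female libraries set apart, and the female log2 fold change of *Hhat* was 0.05 without it.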

How the results depend on the processing

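None of the 3 genes tested in females was called under any alternative run, list genes had 0 calls in both sexes throughout, and neighbouring genes had 0 except for *Kcnh1* under DESeq2's Wald test (1 call). The female log2 fold change ran over all alternatives from -0.50 to 0.66 for *Tbc1d9* (-0.50 without NP female 3, 0.66 without NP female 2), from -0.76 to -0.19 for *4122401K19Rik*, and from -0.13 to 0.36 for *Hhat*. Over all genes, 5 were called in males, 9 with no filter on low counts, 19 by DESeq2's Wald test, 1 with 4 groups in 1 model, 2 with a replicate block, and 2 to 6 when 1 library was left out. In females 0 were called, 3 with no filter, 9 by DESeq2's Wald test, 2 with 4 groups in 1 model, 0 to 2 when 1 library was left out (2 without NP female 2), and 1 without the 3 libraries set apart. The replicate numbers did not pair the mice (residual correlations of -0.27 to 0.28 in males and -0.55 to -0.35 in females); with the replicate block, 0 of the 3 genes tested in females were called, and the log2 fold change of *4122401K19Rik* was -0.19. The number of the 7 genes with every LP male below every NP male was 6 to 7 when 1 library was left out, 7 without LP male 3 or NP male 5, and 5 and 4 in the strand columns taken alone. The male log2 ratio of *Hhat* was -1.16 and -0.59 in those columns. The causes were not tested. Low counts limit *Sorcs1* in females, at 3 to 16 per library.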
